A study of Caenorhabditis elegans with 2 samples.

Results

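The homeobox genes of Caenorhabditis elegans outside the Hox cluster were examined for binding of ZAG-1 in L2 larvae. A gene was a member when its symbol was ceh- followed by a number, with ceh-13, ceh-20 and ceh-40 left out, or when it was among 20 further homeobox genes listed by name (unc-4, unc-30, unc-42, lim-4, lim-6, lim-7, lin-11, ttx-1, ttx-3, vab-3, vab-7, vab-15, dsc-1, cog-1, eyg-1, mls-2, tab-1, dve-1, pha-2 and irx-1). This gave 80 members of 19985 protein-coding genes, of which 60 were ceh- genes. The rule itself uses no measured value, though it was written with earlier results of these data known. The data are chromatin immunoprecipitation with sequencing (ChIP-seq) of eGFP-tagged ZAG-1 in strain OP83, which carries the insertion wgIs83 and the mutation unc-119(ed3) on chromosome III. Whole larvae of mixed sex were used in 2 biological replicates, which form 1 group without a second condition. The labels name zag-1 as the antibody, while the same labels describe the target as eGFP-zag-1. No source used here gives the promoter that drives the tagged gene.

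Homeobox genes encode transcription factors with a DNA-binding homeodomain, and in the worm most neuron types are known to be specified by combinations of them. Members fall into classes by the kind of homeodomain and the other domains they carry, such as the LIM, POU, CUT, PRD and sine oculis classes. ZAG-1 is itself a homeodomain protein with zinc fingers, of the ZEB family, and acts in neuron differentiation. ZEB proteins are known to bind the E-box CAGGTG and its core CACCT.

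The authors' list of peaks past an irreproducible discovery rate (IDR) threshold held 1803 peaks. Their pooled list, which also holds weak candidates and, by its own description, background, held 16325. Replicate 1 had 24146 peaks and replicate 2 had 29374. Each summit went to whichever protein-coding gene had its 5′ end closest, up to 5 kb away, in build ce11, and 1583 IDR-thresholded and 13806 pooled summits found a gene. Peak scores are the authors' own values, and ranks count from the strongest peak of a list. Whole larvae were measured, so fewer cells with ZAG-1 at a site and less ZAG-1 per cell cannot be told apart. The lists carry no expression values, so the tissue could not be checked against marker genes. They give no read counts either, so the depth is unknown.

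In the IDR-thresholded list 6 of the 80 members had a summit, which is 7.5% (95% Wilson interval 3.48 to 15.4), against 6.99% of all protein-coding genes. The 6 were ceh-38, ceh-48 and ceh-39 of the CUT class, unc-42 of the PRD class, lim-4 of the LIM class and ceh-5 of the ANTP class. They held 7 summits, because unc-42 had a pair of them. The other 74 members had none. The share of members lay near that of all genes, and the interval around it, which covers counting only, includes the share of all genes.

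The sequences within 100 bp of 5 of the 7 summits follow, on the plus strand of ce11, because they show what the bound regions do and do not hold. Capitals mark matches to CANNTG, the general E-box, or to CACCT on either strand. The 5 windows hold no CAGGTG, and those of lim-4 and of the unc-42 intron hold no capitals at all. The windows at ceh-38 and ceh-5 are not printed.
ceh-48, intergenic summit, chrIV:6809868-6810068: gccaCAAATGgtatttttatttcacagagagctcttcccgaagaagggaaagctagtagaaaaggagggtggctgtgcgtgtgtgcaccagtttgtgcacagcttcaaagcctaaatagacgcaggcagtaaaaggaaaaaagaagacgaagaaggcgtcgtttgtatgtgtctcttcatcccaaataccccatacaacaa
ceh-39, promoter summit, chrX:1856293-1856493: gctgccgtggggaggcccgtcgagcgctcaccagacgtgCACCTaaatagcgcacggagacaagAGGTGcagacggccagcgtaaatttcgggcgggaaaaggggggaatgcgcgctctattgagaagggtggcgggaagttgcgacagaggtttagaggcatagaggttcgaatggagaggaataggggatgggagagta
unc-42, promoter summit, chrV:9769503-9769703: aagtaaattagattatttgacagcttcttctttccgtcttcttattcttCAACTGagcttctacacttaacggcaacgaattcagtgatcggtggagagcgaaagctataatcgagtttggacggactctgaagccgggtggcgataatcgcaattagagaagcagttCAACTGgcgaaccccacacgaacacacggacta
unc-42, intron summit, chrV:9765746-9765946: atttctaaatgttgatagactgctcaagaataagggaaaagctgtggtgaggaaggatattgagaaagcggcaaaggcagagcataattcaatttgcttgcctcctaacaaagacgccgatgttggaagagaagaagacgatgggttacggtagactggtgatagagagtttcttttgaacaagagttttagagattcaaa
lim-4, intron summit, chrX:3871697-3871897: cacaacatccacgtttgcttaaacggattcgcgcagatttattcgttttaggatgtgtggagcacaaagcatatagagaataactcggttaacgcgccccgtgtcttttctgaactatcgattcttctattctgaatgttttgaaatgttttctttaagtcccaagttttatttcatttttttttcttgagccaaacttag

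The Onecut genes made up 6 members. Their proteins carry a cut domain and a homeodomain and act redundantly in pan-neuronal gene expression. Of the 6, 3 had an IDR-thresholded summit, against 6.99% of all protein-coding genes. The classes were set with earlier results of these data known, and this share of a few genes was not tested. The strongest member peak was that of ceh-38 (WBGene00000459), at chrII:6951366-6951741 with a score of 94.4, rank 152 of 1803. Its summit lay 28 bp downstream of the 5′ end, inside an untranslated exon of the gene and in its promoter. The peak that overlapped it scored 63.0 and ranked 134 in replicate 1, and scored 30.7 and ranked 269 in replicate 2, so it was among the strong peaks of both. The gene malt-1, on the opposite strand, has its 5′ end 254 bp from the summit, so the assignment to ceh-38 separates a pair of divergent genes. The window held the E-boxes CATGTG, which starts 1 bp before the summit, and CACATG, which starts 83 bp before it. Weaker summits at ceh-38 came from the pooled list alone, with scores of 15.01 at 3454 bp and 11.5 at 2621 bp downstream of the 5′ end.

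At ceh-48 (WBGene00015934), a Onecut gene expressed throughout the nervous system, the peak at chrIV:6809780-6810155 scored 67.4 and ranked 395. Its summit was intergenic, 2140 bp upstream of the 5′ end. Replicate 1 gave it rank 260 with a score of 51.3, and replicate 2 gave it rank 650 with a score of 20.8. A non-coding RNA gene, C17H12.31, lies 93 bp from the summit, closer than any protein-coding 5′ end. In the sequence printed above the only capitals, CAAATG, start 96 bp before the summit, at the edge of the window.

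At ceh-39 (WBGene00000460), known as an X-chromosome signal element in sex determination, the peak at chrX:1856205-1856580 scored 36.8 and ranked 1272. Its summit lay in the promoter, 221 bp upstream of the 5′ end. Replicate 1 ranked the peak 1065 with a score of 26.4, while replicate 2 ranked it 4107 with a score of 7.95. The rank in replicate 2 was the weakest in either replicate among the 7 summits. The window had a GC content of 58.7%, the highest of the 7, against a median of 45.8% for all IDR-thresholded summits. Of the 7 windows it was also the only one with CACCT, which starts 61 bp before the summit on the plus strand and, read as AGGTG, 36 bp before it. The non-coding RNA gene T26C11.10 lies 80 bp away.

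The Onecut genes ceh-21 and ceh-41 lie beside ceh-39 on chromosome X, from 1846608 to 1852736, and had no pooled summit assigned. Replicate 1 ranked their strongest peaks 14692 for ceh-21 and 14105 for ceh-41, and replicate 2 had none assigned to either. A pooled summit lay 960 bp from the 5′ end of ceh-21 and the nearest IDR-thresholded one 3657 bp from it. Both were nearer to other genes and so were not assigned to ceh-21. The remaining Onecut gene, ceh-49, had no pooled summit assigned, and its strongest peaks ranked 23979 in replicate 1 and 18420 in replicate 2. The CUT class also holds dve-1, a SATB-like gene of the mitochondrial unfolded protein response, which had 3 pooled summits and no IDR-thresholded one. Its strongest, 1517 bp upstream, scored 25.05 in the pooled list, at rank 2356, with ranks 2985 and 2304 in replicates 1 and 2.

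unc-42 (WBGene00006778), a PRD-class gene that sets the identity of command interneurons, was the only member with more than 1 IDR-thresholded summit. The peak at chrV:9769415-9769790 scored 46.5 and ranked 832, with its summit in the promoter, 212 bp upstream of the 5′ end. It ranked 649 with a score of 34.3 in replicate 1 and 2071 with a score of 11.2 in replicate 2. The window printed above holds CAACTG at 51 bp before and 68 bp after the summit, and the non-coding RNA gene F46B6.18 lies 59 bp from the summit.

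The other peak, at chrV:9765658-9766033, scored 29.6 and ranked 1803, the last place in the list. Its summit was in an intron, 3545 bp downstream of the 5′ end and 856 bp from the start of the transcript F58E6.10c.1. Replicate 1 ranked it 1737 and replicate 2 ranked it 2243. Between the 2 summits the pooled list held others at 567 bp downstream, with a score of 20.7, and at 1561 bp downstream, with a score of 10.7. All 4 lay upstream of the gene or inside it.

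lim-4 (WBGene00002987), a LIM-class gene that specifies the AWB olfactory neurons, had its peak at chrX:3871609-3871984 with a score of 36.9 and rank 1266. The summit was in an intron, 1748 bp downstream of the 5′ end. It ranked 1962 with a score of 18.3 in replicate 1 and 1075 with a score of 16.1 in replicate 2. Of the 7 summits it alone was among the 1803 strongest peaks of replicate 2 but not of replicate 1. Weaker pooled summits at lim-4 scored 18.7 at 2454 bp upstream and 12.96 in the promoter, 199 bp downstream.

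ceh-5 (WBGene00000430), a homeobox gene of the Vax type, was assigned the peak at chrI:9725263-9725638, with a score of 72.2 and rank 337. The summit lay 1718 bp upstream of the 5′ end of ceh-5 but inside an untranslated exon of eat-16, a gene for a regulator of G protein signalling, and within the span of ocrl-1. The ranks were 530 in replicate 1, with a score of 37.9, and 305 in replicate 2, with a score of 29.2. Only at ceh-5 did the window hold GAGAGA, which 49.4% of all IDR-thresholded windows hold. That sequence was picked from an earlier account of these data. Which of the 3 genes this peak bears on was not tested.

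**Figure D1:**
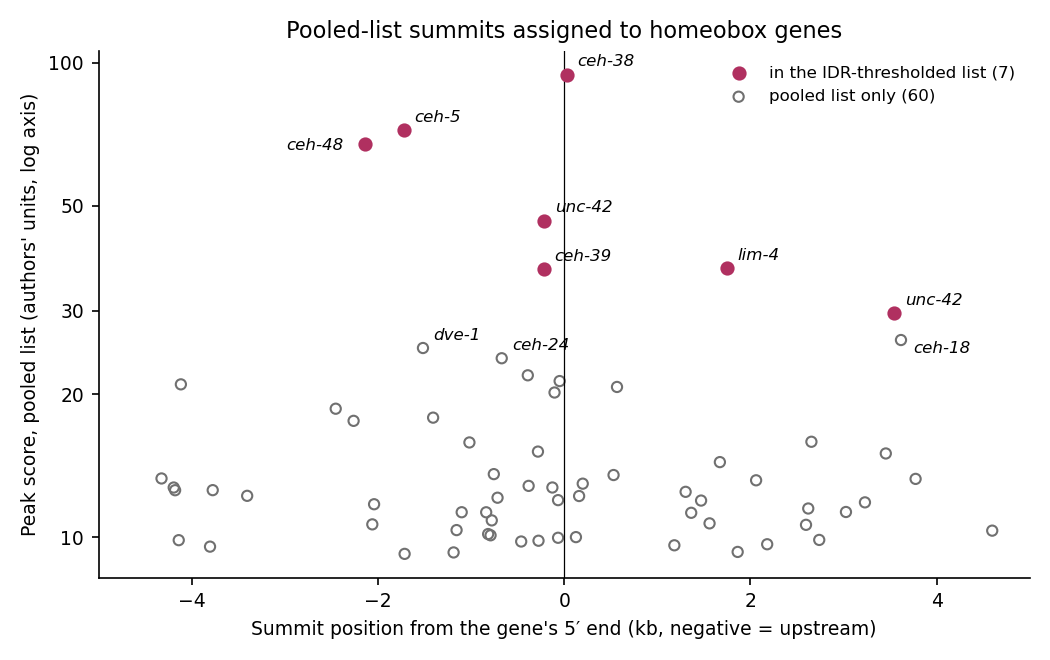
Position of the 67 pooled summits assigned to members, in kb from the gene's 5′ end (x axis, negative is upstream), against the authors' score in the pooled list (y axis, log scale). Filled points are the 7 IDR-thresholded summits, which score 29.6 to 94.4 and lie from 2140 bp upstream to 3545 bp downstream, and open points are the 60 summits of the pooled list alone, which score at most 26.0.

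The plot of score by position shows no single place for the member summits. Of the 7, 3 were in a promoter (reaching from 500 bp before to 100 bp after the start of a protein-coding transcript), which is 42.9%, against 40.4% of all IDR-thresholded summits. The rest were 2 in introns, 1 in an untranslated region and 1 in intergenic sequence. Their median distance from the 5′ end was 1718 bp, against 739 bp for all assigned IDR-thresholded summits, and 7 summits are too few to compare these medians.

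The replicates' summits for the 7 peaks lay 2 to 97 bp apart, with a median of 31 bp. In replicate 1, 6 of the 7 were among its 1803 strongest peaks, against 86.7% of all IDR-thresholded peaks. In replicate 2, 4 of the 7 were, against 77.5%. Taking the 1803 strongest peaks of each replicate by itself gave 6 members (7.5%) in replicate 1, against 6.88% of all genes, and 4 members (5.0%) in replicate 2, against 6.80% of all genes. The 6 of replicate 1 were ceh-38, ceh-39, ceh-48, ceh-5, unc-42 and ceh-24, and the 4 of replicate 2 were ceh-38, ceh-48, ceh-5 and lim-4. ceh-38, ceh-48 and ceh-5 were thus in both.

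**Figure D2:**
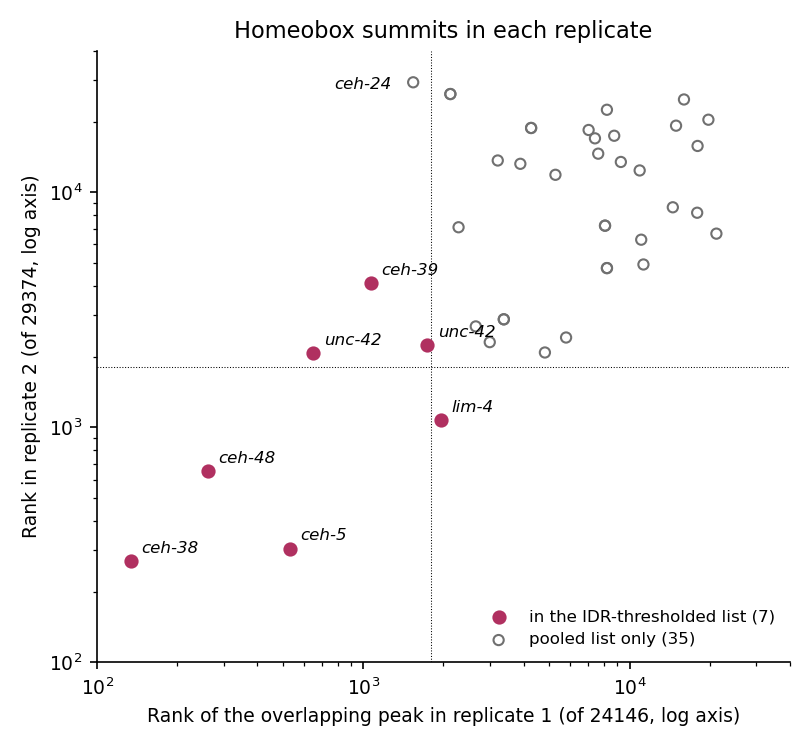
Rank of the overlapping peak in replicate 1 (x axis, of 24146 peaks, log scale) and in replicate 2 (y axis, of 29374 peaks, log scale) for the 42 member summits found in both, with low ranks strongest and dotted lines at rank 1803. Filled points are the 7 IDR-thresholded summits, from ceh-38 at ranks 134 and 269 to ceh-39 at 1065 and 4107, and open points are summits of the pooled list alone, with ceh-24 at 1539 in replicate 1 and 29368 in replicate 2.

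In the pooled list 34 of the 80 members had a summit, which is 42.5% (32.3 to 53.4), against 41.6% of all protein-coding genes. These 34 members held 67 summits, while the 8320 protein-coding genes with a pooled summit held 13806. Of the 34 members, 18 had at least 2, a count not given for all genes. The 60 summits outside the IDR-thresholded list scored 9.22 to 26.0. Their deposited −log10 q-values ran from 0.0224 to 2.37, against 2.40 to 2.50 for all IDR-thresholded peaks. The median score over all 67 was 12.6, against 12.5 for all assigned pooled summits. For 42 of the 67 a peak of each replicate overlapped, which is 62.7%, against 56.3% of all pooled peaks. A further 11 were met by a peak of replicate 1 alone, 12 by replicate 2 alone and 2 by neither. Some are not separate sites, since 10 of the 67 peaks overlap another pooled peak, as at ceh-58, unc-30, ceh-23 and ceh-12.

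Taking more of the pooled list from its strongest peak down, the share of members followed that of all genes throughout. With the 500 strongest peaks it was 3.75% of members, against 2.1% of all genes. With 3000 peaks it was 12.5% of members, against 10.7% of all genes, and with 6000 peaks it was 17.5% of members, against 18.7% of all genes. No cut of the list set the members apart by more than a few genes.

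**Figure D3:**
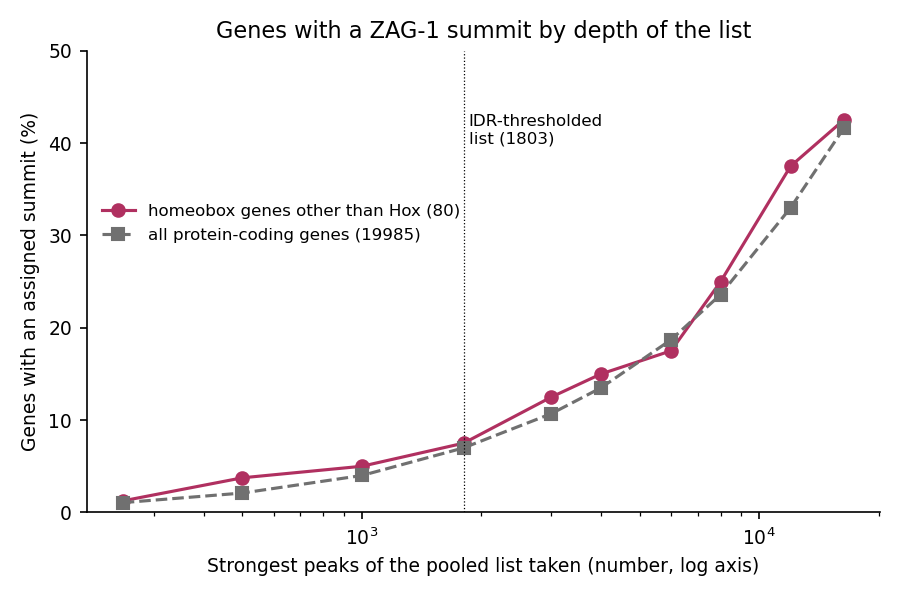
Share of genes with an assigned summit in percent (y axis) as more of the strongest pooled peaks are taken (x axis, number of peaks, log scale), for the 80 homeobox genes (circles) and all 19985 protein-coding genes (squares). Both lines climb together, to 42.5% of members and 41.6% of all genes at 16325 peaks, and the dotted line marks the 1803 peaks of the IDR-thresholded list.

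Of the 28 members found in the pooled list alone, the 10 with the strongest peaks are named here. ceh-18, a POU-class gene that acts in gonadal sheath cells to control oocyte maturation, came closest to the IDR-thresholded list, with a score of 26.0 and rank 2218 for a summit in its intron, 3617 bp downstream of the 5′ end. Both replicates held it at similar places, rank 2645 in replicate 1 and rank 2688 in replicate 2. dve-1, described above, was next. ceh-24, an NK-2 type gene, had a score of 23.8 at 671 bp upstream, but its peak ranked 1539 in replicate 1 and 29368 of 29374 in replicate 2, so it was near the top of the replicate 1 list and at the foot of the replicate 2 list.

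ceh-58 scored 21.9 in its promoter, 391 bp upstream, and ranked 2279 in replicate 1 and 7099 in replicate 2. unc-30, the PRD-class gene that specifies the GABAergic D-type motor neurons, had 5 pooled summits, of which a pair of overlapping peaks lies near the 5′ end and another upstream. The strongest of them, 49 bp upstream, scored 21.3 and ranked 3371 in replicate 1 and 2881 in replicate 2. Both replicates thus held the unc-30 promoter peak, outside their 1803 strongest peaks.

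The remaining 5 were weaker. ceh-93 scored 20.2 at 104 bp upstream, ceh-23 scored 15.8 at 1018 bp upstream, and ceh-79 scored 15.1 at 282 bp upstream. ceh-86 scored 13.6 at 756 bp upstream, and lin-11, a LIM-class gene for interneuron and vulval fates, scored 13.5 in a coding exon 530 bp downstream. For ceh-79 and ceh-86 no peak of replicate 2 overlapped.

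Members with known roles in neuron identity were read from a list of 14. Of these, 2 (unc-42 and lim-4) had an IDR-thresholded summit, against 6.99% of all genes. A pooled summit was found at 7 of the 14, near the share of 41.6% of all genes, namely at these with unc-30, unc-4, lin-11, ceh-36 and ttx-1. unc-4, which sets the synaptic inputs of motor neurons, scored 12.6 at 4179 bp upstream and 11.97 in its promoter at 66 bp upstream. The farther unc-4 summit lay in a coding exon of another gene, F26C11.3, and no peak of replicate 2 overlapped it. The Otx-type genes ceh-36 and ttx-1 scored 12.2 and 11.9, and no peak of replicate 2 overlapped that of ceh-36. The other 7, ceh-10, ceh-14, lim-6, ttx-3, cog-1, vab-3 and vab-7, had no pooled summit assigned. Their nearest pooled summit of any assignment lay 3551 bp (ceh-10) to 9308 bp (vab-3) from the 5′ end.

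The replicate lists still held weaker peaks at these genes. vab-3, the worm Pax6 gene, had summits ranked 5582 in replicate 1 and 3965 in replicate 2, and 3 pooled summits elsewhere in its long gene body, though none was assigned to its 5′ end. ceh-10 and lim-6 had peaks in replicate 1 only, ranked 9332 for ceh-10 and 14655 for lim-6. ttx-3, which specifies the AIY interneuron, had its strongest peaks at rank 16464 in replicate 1 and 18172 in replicate 2.

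With every peak of a replicate taken, 54 members (67.5%, 56.6 to 76.8) had a summit in replicate 1, against 55.1% of all genes. In replicate 2, 65 members (81.2%, 71.3 to 88.3) had one, against 62.6% of all genes. The members have more room around their 5′ ends, a median of 5744 bp against 3858 bp for all genes. These replicate shares were not read by that room, and its part in them was not tested. The replicate lists also hold background by their own description, and 45 members had a summit in both, a count not given for all genes. Of the 46 members without a pooled summit, 40 had one in a replicate, again without the same count for all genes. The 6 with no summit assigned in any list were ceh-16, ceh-51, ceh-75, ceh-76, ceh-92 and ceh-99, named after their values were seen. Pooled summits nearer to other genes still lay 809 bp from the 5′ end of ceh-92 and 1461 bp from that of ceh-75. At ceh-99 and ceh-76 such summits lay 2166 bp and 3548 bp away.

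The counts by class stand against 6.99% of all genes with an IDR-thresholded summit and 41.6% with a pooled one. Of the 7 CUT members 3 had an IDR-thresholded summit and 4 (57.1%) a pooled one. Among 22 ANTP members 1 had an IDR-thresholded and 9 (40.9%) a pooled summit, among 15 PRD members 1 and 7 (46.7%), and among 6 LIM members 1 and 2 (33.3%). Neither POU member, ceh-6 or ceh-18, had an IDR-thresholded summit and both had pooled ones. None of the 3 sine oculis members, ceh-32, ceh-33 and ceh-34, had a pooled summit, and of the 2 TALE members only irx-1 had one, with a score of 12.8. The 23 members given no class had 0 IDR-thresholded and 9 pooled genes. The counts per class are small and no difference between classes was tested.

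**Figure D4:**
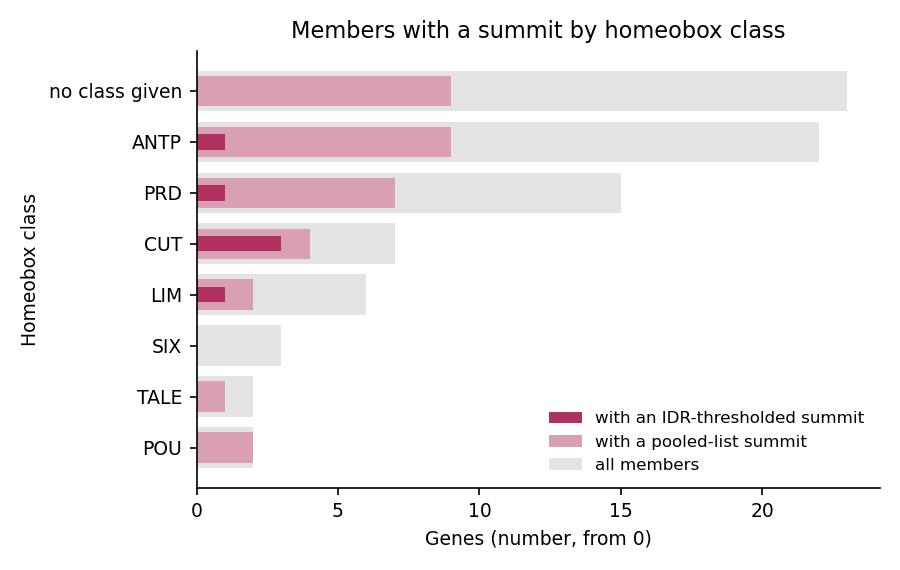
Number of members per homeobox class (y axis) with an IDR-thresholded summit (dark bars), with a pooled summit (light bars) and in all (grey bars), counted on the x axis from 0. CUT holds 3 of the 6 members with an IDR-thresholded summit among its 7 genes, and the 23 genes given no class hold none.

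The members have more room around their 5′ ends than most genes. The territory of a gene, the sequence nearer to its 5′ end than to any other protein-coding one and within 5 kb, had a median of 5744 bp for members, against 3858 bp for all genes. Among all genes the pooled share climbs with territory, so the members were also read within 4 groups of equal size by territory. In the group with the most room, from 5864 to 10000 bp, 19 of 39 members (48.7%) had a pooled summit, against 64.7% of all genes. In the group next below it 10 of 22 members (45.5%) had a pooled summit, against 46.8% of all genes, and in the one below that 4 of 15 (26.7%), against 1599 of the 4996 genes of that group. In the group with the least room 1 of 4 had one, against 1151 of the 4995 genes of that group. In the IDR-thresholded list the groups did not all go the same way. From the group with the least room to that with the most, 0 of 4, 2 of 15 (13.3%), 2 of 22 (9.09%) and 2 of 39 members (5.13%) had a summit, against 4.36%, 4.9%, 7.34% and 11.3% of all genes. Members thus lay below all genes in the shortest and longest groups and above them in both groups between, each on at most 2 genes. No test was made of these shares.

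**Figure D5:**
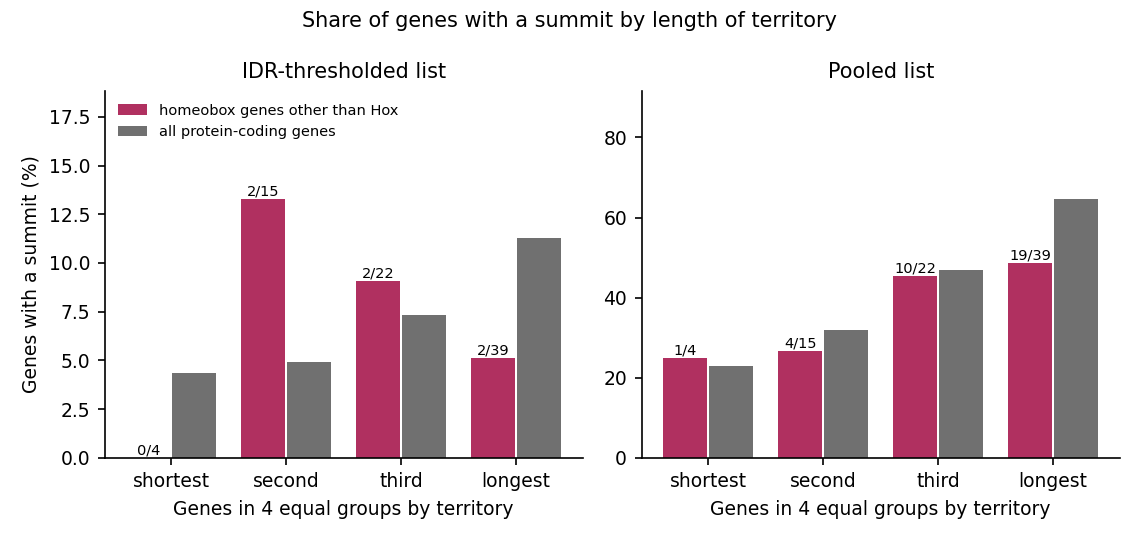
Share of genes with a summit in percent (y axis, from 0) in 4 groups by territory length (x axis, shortest to longest), for the homeobox genes (red) and all protein-coding genes (grey), in the IDR-thresholded list (left) and the pooled list (right). In the IDR-thresholded list members lie above all genes in both middle groups (13.3% against 4.9%, and 9.09% against 7.34%) and below in the others, and in the pooled list they lie furthest below in the longest group (48.7% against 64.7%), with the number of members printed above each bar.

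Chromosome X holds 26 members, 32.5% of them, against 13.7% of all genes. There 9 of the 26 (34.6%) had a pooled summit, against 55.0% of all genes on X, and 2 (7.69%) had an IDR-thresholded one, against 11.0%. On chromosome I, 7 of 11 members (63.6%) had a pooled summit, against 45.5% of all genes there. On IV 4 of 5 (80.0%) had one, against 40.7%, and on III 2 of 7 (28.6%), against 46.4%. On II it was 7 of 17 (41.2%), against 37.8%, and on V 5 of 14 (35.7%), against 32.7%. The part of territory in the counts by chromosome was not tested.

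Of the 5 motifs searched, 3 were found in at least 1 of the 7 member windows. CAGGTG, searched as CAGGTG or CACCTG, was in 0 of the 7 windows of 201 bp, which leaves an upper Wilson bound of 35.4%, against 1.89% of all IDR-thresholded windows. CACCT or AGGTG, which every CAGGTG contains, was in 1 of 7 (14.3%), against 13.1%. CANNTG, the general form, was in 3 of 7 (42.9%), against 56.9%. GAGAGA or TCTCTC was in 1 of 7 (14.3%), against 49.4%, and TAATTA, a homeodomain core, was in 0 of 7, against 4.16%. GAGAGA was searched because it led the short sequences in an earlier account of these data. Its share over all windows is therefore not independent of that choice.

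Over the pooled list the counts are larger. CAGGTG was in 5 of 67 member windows (7.46%, 3.23 to 16.3), against 4.45% of all pooled windows. The 5 were assigned to unc-4, ceh-38, lin-11, ceh-88 and ceh-23, with scores of 9.55 to 12.6, and none of them was an IDR-thresholded summit. Only at lin-11 did a peak of each replicate overlap, and at ceh-23 neither replicate had one. The unc-4 summit lay in a coding exon of F26C11.3 and the ceh-88 summit in an intron of C49C3.4. TAATTA was in 7 of 67 (10.4%), against 8.17%, CACCT in 15 of 67 (22.4%), against 17.5%, and GAGAGA in 14 of 67 (20.9%), against 22.8%. CANNTG was in 39 of 67 (58.2%), against 55.8%. A match is a description of letters and does not make a site.

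A gene annotated as ncRNA, a class that leaves out lincRNA and piRNA genes, lay within 100 bp of 3 of the 7 IDR-thresholded member summits (42.9%, 15.8 to 75.0), those of ceh-48, ceh-39 and the unc-42 promoter, against 18.2% of all IDR-thresholded summits. In the pooled list a gene of that class lay as close to 8 of 67 member summits (11.9%), against 8.27% of all pooled summits. Whether these peaks belong to the non-coding genes was not tested.

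The counts depend on the distance limit. Within 1 kb in place of 5 kb, 3 members had an IDR-thresholded summit and 22 a pooled one, and within 10 kb 6 and 39 did. The shares of all genes at these limits are not given here, so the counts describe the members alone. In the IDR-thresholded list the farthest summits inside it were those of unc-42 at 3545 bp and ceh-48 at 2140 bp. In the pooled list lin-11 at 4597 bp, with a score of 10.3, was just inside, and ceh-51 at 5418 bp, with a score of 23.96, and lim-7 at 5714 bp, with a score of 20.2, were outside. Measured from the nearest protein-coding transcript start, which can lie inside a gene, 7 members (8.75%) had an IDR-thresholded summit, against 7.26% of all genes. The added gene was ceh-22, an NK-2 type gene of pharyngeal muscle, through a peak at chrV:10677485-10677860 with a score of 58.5 and rank 543. That summit lies 3169 bp downstream of a ceh-22 transcript start but 5755 bp from the 5′ end of the gene record. The gene record of gsp-1 is nearer, at 4749 bp. At position 10677673 the summit is past the 3′ end of ceh-22, at 10675769, and inside the ncRNA gene F29F11.17.

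Among 19 homeobox genes outside the rule, among them the Hox genes and their cofactors, 2 (10.5%, 2.94 to 31.4) had an IDR-thresholded summit, ceh-20 with a score of 36.03 at 837 bp upstream and unc-39 with a score of 30.6 at 3458 bp upstream, against 6.99% of all genes. In the pooled list 14 of the 19 had one (73.7%, 51.2 to 88.2), against 41.6% of all genes. Their median territory of 8380 bp falls in the group with the most room, where 64.7% of all genes had a pooled summit. zag-1 itself, at chrIV:3855843-3861569, had no summit assigned in any of the 4 lists, and its nearest pooled summit was 17662 bp from its 5′ end.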

How the data were processed

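ChIP-seq peak lists of eGFP-tagged ZAG-1 were analysed for 2 biological replicates of 1 group, in build ce11. Per the deposited file list, each replicate's peaks came from its alignment and a control alignment, a pooled list came from both replicates, and the IDR-thresholded list was made from these. No source used here names the peak caller, its settings or the cut on IDR. Each peak carries a score, a −log10 q-value and a summit offset, all as deposited by the authors. The IDR-thresholded peaks were the 1803 highest-scoring pooled peaks, and their deposited −log10 q-values ran from 2.40 to 2.50. The summit lay at the middle of 96.3% of them. Scores were used only to describe and rank peaks within a list.

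Gene models were those of Ensembl release 115, and the sequence was the RefSeq genome WBcel235, the same assembly as ce11. Coordinates are 1-based. A summit went to the gene record with the nearest 5′ end within 5 kb, among protein-coding genes. It was classed as promoter, coding exon, untranslated region, intron, other transcribed or intergenic, in that order. Replicate peaks were matched by an overlap of at least 1 bp. Motifs were counted on both strands within 100 bp of the summit.

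The members, classes and gene lists were chosen with earlier results of these data known, so no p-value was computed. The main shares carry 95% Wilson intervals, which cover counting only, and stand beside the same share over all genes or summits. Members named were all those with an IDR-thresholded summit, the 10 strongest of those found in the pooled list alone, and 14 genes of neuron identity. Alternatives were other distance limits, gene starts, promoter and motif windows, stronger peaks, and each replicate alone. The assignment was tested on simulated summits. Python 3.11.15, numpy 2.4.6, pandas 2.3.3, scipy 1.17.1 and matplotlib 3.10.9 were used.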

Additional observations from a re-analysis of the deposited data

How the results depend on the processing

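The count of members with an IDR-thresholded summit was 6 as reported and 3 within 1 kb (ceh-38, ceh-39 and unc-42). With a replicate left out it was 4 to 6, counted over the 1803 highest-scoring peaks of the other replicate in place of an IDR-thresholded list. The 6 of replicate 1 held ceh-24 in place of lim-4. Other settings for the IDR-thresholded list gave counts of 4 to 7. The pooled count was 34 as reported, 22 within 1 kb, 21 with the higher-scoring 50% of peaks, and 54 to 65 with a replicate left out, since each replicate's whole list is longer than the pooled one. Other settings gave a pooled count of 28 to 41. For most of these settings the share of all genes is not given, so the counts describe the members alone. Of the IDR-thresholded member summits, 3 were in a promoter, and 1 with a promoter of 200 bp. None held CAGGTG in any window tried. With motifs chosen after seeing the data, 1 held CACCT and 3 held CANNTG. No paired analysis was possible because there is 1 group. The lists give no depth, so what depth limits is unknown.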
